A study of Arabidopsis thaliana with 12 samples.

Results

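The genes of jasmonate synthesis and the vegetative storage proteins were followed in Arabidopsis thaliana seedlings, with the 10 genes taken by locus from a table of 32833. They are LOX2 (AT3G45140), LOX3 (AT1G17420), LOX4 (AT1G72520), AOS (AT5G42650), AOC1 (AT3G25760), AOC2 (AT3G25770), OPR3 (AT2G06050), JAR1 (AT2G46370), VSP1 (AT5G24780) and VSP2 (AT5G24770). All 10 were found and all passed the filter on low values, set at 1 RPKM or more in 3 or more of the 12 libraries, as did 17628 genes in all. RPKM is a read count divided by gene model length and library size, so levels of different genes can be compared per length.

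Col-0 seedlings at 10 days of age gave 4 groups of 3 poly(A) RNA libraries: atdamt1 after 2.5 h of heat, wild type (WT) after 2.5 h of heat, atdamt1 control at 0 h and WT control at 0 h. The series concerns METTL4, a putative adenine methyltransferase, and heat tolerance, and the design set heat against control in each genotype. The labels give neither the nature of the atdamt1 allele nor the temperature, and they name no unheated seedlings kept for the same 2.5 h, so heat and elapsed time cannot be told apart. They do not say that libraries of a group came from separate plants, and p-values therefore reflect library-to-library spread, part of which may be technical. In bulk seedlings, fewer cells of a type and less RNA per cell cannot be told apart.

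Jasmonates are lipid-derived hormones of wounding, insect attack and flower fertility. Lipoxygenases (LOX) in the chloroplast oxygenate linolenic acid, allene oxide synthase (AOS) and allene oxide cyclase (AOC) convert the product to 12-oxo-phytodienoic acid, and OPR3 reduces this in the peroxisome before beta-oxidation shortens it to jasmonic acid. JAR1 then joins jasmonic acid to isoleucine, the form the COI1 receptor binds together with JAZ repressors. VSP1 and VSP2, acid phosphatase-like storage proteins of vegetative tissue, are classical jasmonate-induced genes.

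The genes include pairs of neighbouring copies. VSP2 (chromosome 5, 8500468 to 8502224, minus strand, TAIR10.1) and VSP1 (8507590 to 8509201, minus strand) lie 5365 bases apart with 1 annotated gene between them, and their coding sequences are 90.4% identical. AOC1 (chromosome 3, 9403779 to 9405338, plus strand) and AOC2 (9406669 to 9408071, plus strand) lie 1330 bases apart with no gene between them and are 90.3% identical in coding sequence. AOC3 (AT3G25780), not one of the 10, follows AOC2 on the same strand at 9409160 to 9411090. AOC2 and AOC3 are 82.4% identical in coding sequence. Only 0.4% of the 50-base stretches of VSP1 coding sequence occur in VSP2. The shares are 0.0% for AOC1 in AOC2 and 0.1% for AOC2 in AOC3. How the authors' counting placed reads that match more than 1 gene is not given in the sources used here, so values of these copies are uncertain to that extent. No annotated gene overlaps any of the 10.

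The 300 bases before each annotated start are shown for both pairs because the copies share short runs there; capitals mark exact runs of at least 12 bases that occur in both windows of a pair. Sequence is from the RefSeq copy of TAIR10.1, read 5′ to 3′ on the strand of the gene.
VSP1, chr5:8509202-8509501, minus strand: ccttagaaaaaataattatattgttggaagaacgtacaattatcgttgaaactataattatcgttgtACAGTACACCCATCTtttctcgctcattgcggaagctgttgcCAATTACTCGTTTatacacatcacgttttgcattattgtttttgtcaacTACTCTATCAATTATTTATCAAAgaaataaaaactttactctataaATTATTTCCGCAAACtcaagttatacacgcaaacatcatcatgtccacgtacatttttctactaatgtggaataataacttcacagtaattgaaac
VSP2, chr5:8502225-8502524, minus strand: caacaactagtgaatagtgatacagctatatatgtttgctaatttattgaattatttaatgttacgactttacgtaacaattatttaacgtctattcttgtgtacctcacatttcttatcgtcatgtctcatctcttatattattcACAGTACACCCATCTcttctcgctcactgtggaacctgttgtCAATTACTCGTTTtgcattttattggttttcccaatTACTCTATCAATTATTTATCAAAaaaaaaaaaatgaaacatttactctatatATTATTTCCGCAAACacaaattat
AOC1, chr3:9403479-9403778, plus strand: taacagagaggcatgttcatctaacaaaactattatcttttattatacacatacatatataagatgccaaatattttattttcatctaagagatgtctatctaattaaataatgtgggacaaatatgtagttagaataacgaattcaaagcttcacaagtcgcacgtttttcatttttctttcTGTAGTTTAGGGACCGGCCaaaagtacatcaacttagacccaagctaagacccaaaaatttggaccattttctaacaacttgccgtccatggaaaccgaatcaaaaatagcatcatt
AOC2, chr3:9406369-9406668, plus strand: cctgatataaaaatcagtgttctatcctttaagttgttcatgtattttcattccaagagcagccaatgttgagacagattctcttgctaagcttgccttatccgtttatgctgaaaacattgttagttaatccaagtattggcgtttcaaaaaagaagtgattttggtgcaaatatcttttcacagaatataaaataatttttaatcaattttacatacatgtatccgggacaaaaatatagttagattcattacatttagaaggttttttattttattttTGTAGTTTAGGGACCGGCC

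The VSP windows share 4 runs in the same order, 66 bases in all and 23 bases in the longest. The AOC windows share a single run of 19 bases, which ends 1 base before the annotated start of AOC2 and 99 bases before that of AOC1. The AOS window is shown for its G-box, the motif CACGTG in capitals, which ends at the last base before the annotated start.
AOS, chr5:17099596-17099895, minus strand: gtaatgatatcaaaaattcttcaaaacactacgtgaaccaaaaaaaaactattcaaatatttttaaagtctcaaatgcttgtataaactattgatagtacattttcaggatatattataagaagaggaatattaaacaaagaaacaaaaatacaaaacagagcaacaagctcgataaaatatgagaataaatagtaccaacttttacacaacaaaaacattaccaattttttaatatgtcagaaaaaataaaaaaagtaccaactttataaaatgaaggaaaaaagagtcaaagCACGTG

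On either strand, CACGTG occurs in the window of 1 of the 10 genes, AOS, and in 6.48% of 32546 windows of all genes. CACATG, a related E-box, occurs in the windows of LOX2, LOX3 and JAR1 and in 13.2% of all windows. GAANNTTC, a heat shock element core, occurs in that of LOX4 and in 11.6% of all windows, and GCCGCC occurs in none of the 10 and in 2.3% of all windows. These matches describe letters in 1 window and not binding.

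Library depth was 21720000 to 23519000 reads. AT1G19340, the METTL4 homolog, held 0.146 to 0.475 RPKM in atdamt1 heat and 1.3 to 1.54 in WT heat, and 0.808 to 1.29 in atdamt1 control and 2.5 to 3.1 in WT control, so the genotypes did not overlap within a treatment. The 4 leaf markers summed to at least 21000 RPKM in every group, but did not move together. On the log2 scale CAB3 (AT1G29910) rose with heat by 1.13 in atdamt1 and 1.11 in WT. RBCS1A (AT1G67090) fell, with -0.64 and -0.40, and the other 2 leaf markers were not called in either genotype. The 5 root markers summed to 321 to 374 RPKM in atdamt1 heat and 180 to 427 in WT heat, against 1330 to 2030 in atdamt1 control and 1570 to 2050 in WT control, nearly all of it the glucosidase PYK10 (AT3G09260), which overlaps a gene on the other strand. Of these 5, PYK10 and SCR (AT3G54220) were tested and both fell with heat in both genotypes. The 4 flower markers summed to at most 0.877 RPKM and the 3 seed markers to at most 0.253 in any library. The part of the root marker shift in the values below was not tested.

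AOC2, OPR3, JAR1 and LOX3 fell after heat in both genotypes. VSP1, which passed the filter only through control libraries, where it is high, fell in WT. LOX2, LOX4, AOS and AOC1 did not pass the threshold in either genotype, and AOS had the most positive change of the 10 genes in each. In limma with adjustment over all genes tested (threshold 0.05), 4 of 10 fell and 0 rose in atdamt1, where 56.2% of all genes tested fell and 10.3% rose. In WT, 5 fell and 0 rose, where 52.6% of all genes fell and 9.41% rose. The shares called lower were thus near or below those over all genes. On the log2(RPKM + 1) scale the median gene moved by -0.436 in atdamt1 and -0.413 in WT, and the median of the 10 by -0.5 in atdamt1 and -0.587 in WT.

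LOX2, the main 13-lipoxygenase of leaves, was the most abundant lipoxygenase in the table: its lowest library held 18.6 RPKM, while the highest value of LOX6 (AT1G67560) was 13.9 and that of LOX1 (AT1G55020) 11.6. It held 43.6, 44.0 and 18.6 RPKM in atdamt1 heat against 33.9, 28.4 and 84.6 in atdamt1 control. In WT it held 39.0, 34.2 and 35.2 RPKM after heat against 33.2, 23.5 and 74.2 in control. Control replicate 3 of either genotype was the highest of its group, and the groups overlapped. The log2 change was -0.39 ± 0.47 in atdamt1 (SE, adjusted p = 0.478, limma) and -0.10 ± 0.47 in WT (adjusted p = 0.863, limma), with 95% intervals of -1.4 to 0.63 and -1.12 to 0.92. Without atdamt1 control replicate 3 the change there was 0.09 (adjusted p = 0.873, limma).

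LOX3, a 13-lipoxygenase with a part in flower fertility, was lower after heat in both genotypes. It held 1.75, 1.42 and 1.55 RPKM in atdamt1 heat against 3.72, 3.02 and 4.73 in atdamt1 control, with no overlap. In WT it held 2.85, 1.68 and 2.06 RPKM after heat against 2.75, 3.55 and 5.06 in control, and the groups overlapped through replicate 1 of each. The change was -0.89 ± 0.19 in atdamt1 (adjusted p = 0.00166, limma) and -0.57 ± 0.19 in WT (adjusted p = 0.0229, limma). The WT call rests on single libraries: LOX3 gave adjusted p = 0.0921, 0.0596 and 0.0988 (limma) without WT heat replicate 2, WT heat replicate 3 and WT control replicate 3, with changes of -0.45, -0.55 and -0.39.

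LOX4, its closest relative here with 81.1% identity in coding sequence, was near the filter and did not pass the threshold. It held 1.28, 1.21 and 1.06 RPKM in atdamt1 heat against 1.2, 0.815 and 1.55 in atdamt1 control. WT heat libraries held 3.46, 0.477 and 1.52 RPKM, the widest spread of its 4 groups, against 0.544, 1.03 and 1.79 in WT control. Changes were 0.01 ± 0.33 in atdamt1 (adjusted p = 0.982, limma) and 0.31 ± 0.33 in WT (adjusted p = 0.439, limma), and -0.10 in WT without the first heat library.

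AOS, the single-exon cytochrome P450 that commits hydroperoxides to jasmonate synthesis, did not pass the threshold after heat. It held 72.2, 47.5 and 61.5 RPKM in atdamt1 heat against 49.8, 38.0 and 70.4 in atdamt1 control. WT held 43.2, 72.7 and 48.3 RPKM after heat against 29.7, 38.8 and 57.1 in control. All groups overlapped, with changes of 0.22 ± 0.28 in atdamt1 (adjusted p = 0.509, limma) and 0.39 ± 0.28 in WT (adjusted p = 0.24, limma). Relative to the median gene these changes were 0.65 and 0.81, above 84.9% and 90.5% of all genes tested. Under median-of-ratios scaling, which sets the median gene near 0, the WT change was 0.88 (adjusted p = 0.0269, limma) and the atdamt1 change 0.75 (adjusted p = 0.0541, limma). With control replicate 3 of both genotypes left out, a setting chosen after seeing the data, the WT change was 0.64 (adjusted p = 0.0436, limma).

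AOC2 carried most of the cyclase transcript and was the most abundant of the 10 genes in every group. It held 110, 91.1 and 79.3 RPKM in atdamt1 heat against 176, 144 and 217 in atdamt1 control. WT held 89.2, 96.6 and 76.1 RPKM after heat against 130, 120 and 191 in control. Every heat library lay below every control library of its genotype, and AOC2 fell, with -0.93 ± 0.20 in atdamt1 (SE, adjusted p = 0.00141, limma) and -0.72 ± 0.20 in WT (adjusted p = 0.007, limma). AOC1 held 11.3, 6.34 and 7.37 RPKM in atdamt1 heat against 10.5, 9.35 and 14.1 in atdamt1 control, and 10.4, 10.1 and 9.62 in WT heat against 10.9, 8.9 and 16.1 in WT control. Its groups overlapped, with changes of -0.41 ± 0.22 in atdamt1 (adjusted p = 0.12, limma) and -0.19 ± 0.22 in WT (adjusted p = 0.47, limma). In atdamt1 the AOC1 call appeared without the first heat library (-0.63, adjusted p = 0.0264, limma).

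OPR3 and JAR1, the reductase and the conjugating enzyme, were lower in every heat library than in every control library of the same genotype. OPR3 held 9.8, 7.99 and 7.1 RPKM in atdamt1 heat against 15.2, 11.9 and 17.2 in atdamt1 control. In WT it held 11.1, 10.4 and 10.2 RPKM after heat against 14.0, 17.7 and 18.2 in control. OPR3 fell, with -0.76 ± 0.15 in atdamt1 (SE, adjusted p = 0.000834, limma) and -0.60 ± 0.15 in WT (adjusted p = 0.00402, limma). JAR1 held 7.43, 9.2 and 11.2 RPKM in atdamt1 heat against 12.2, 14.0 and 16.8 in atdamt1 control, and 7.97, 8.86 and 8.56 in WT heat against 12.4, 13.7 and 16.3 in WT control. It fell, with -0.59 ± 0.15 in atdamt1 (adjusted p = 0.00503, limma) and -0.67 ± 0.15 in WT (adjusted p = 0.00233, limma).

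The storage protein genes were scarce throughout, and VSP1 fell after heat in WT. VSP1 held 1.09, 0.103 and 0.135 RPKM in atdamt1 heat against 0.922, 0.696 and 2.16 in atdamt1 control. WT heat libraries held 0.0334, 0.319 and 0.358 RPKM, which is 1, 10 and 11 reads, against 2.65, 1.05 and 1.63 RPKM, or 77, 31 and 48 reads, in WT control. The WT groups did not overlap and the ratio of means was 0.133, while the atdamt1 groups overlapped through the first heat library. The change was -0.66 ± 0.30 in atdamt1 (adjusted p = 0.0731, limma) and -1.14 ± 0.30 in WT (adjusted p = 0.00637, limma), and 1 added to values this low understates it: with 0.1 added the VSP1 changes were -1.67 in atdamt1 and -2.58 in WT, with only the WT change passing the threshold. Without atdamt1 heat replicate 1 the atdamt1 change was -0.96 (adjusted p = 0.0152, limma), and without atdamt1 control replicate 2 it was -0.84 (adjusted p = 0.0482, limma).

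VSP2 held 1.36, 0.152 and 0.356 RPKM in atdamt1 heat against 0.673, 0.556 and 2.24 in atdamt1 control. WT held 0.0589, 0.31 and 0.603 RPKM after heat, or 2, 11 and 21 reads, against 0.759, 2.21 and 1.02 in control, or 25, 74 and 34 reads, with no overlap. Neither change passed the threshold, at -0.40 ± 0.34 in atdamt1 (adjusted p = 0.316, limma) and -0.79 ± 0.34 in WT (adjusted p = 0.0629, limma). The WT value crossed it without atdamt1 heat replicate 1, atdamt1 control replicate 3 or WT control replicate 1 (adjusted p = 0.044, 0.0335 and 0.0477, limma). With 0.1 in place of 1 added to RPKM, the VSP2 change in WT was -1.87 and passed (adjusted p = 0.0459, limma). VSP1 reached 1 RPKM in 4 control libraries and 1 heat library and VSP2 in 3 and 1. Both therefore passed the filter only through the controls, where they are higher, which favours a fall. Both were highest among heat libraries in the first atdamt1 library.

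**Figure D1:**
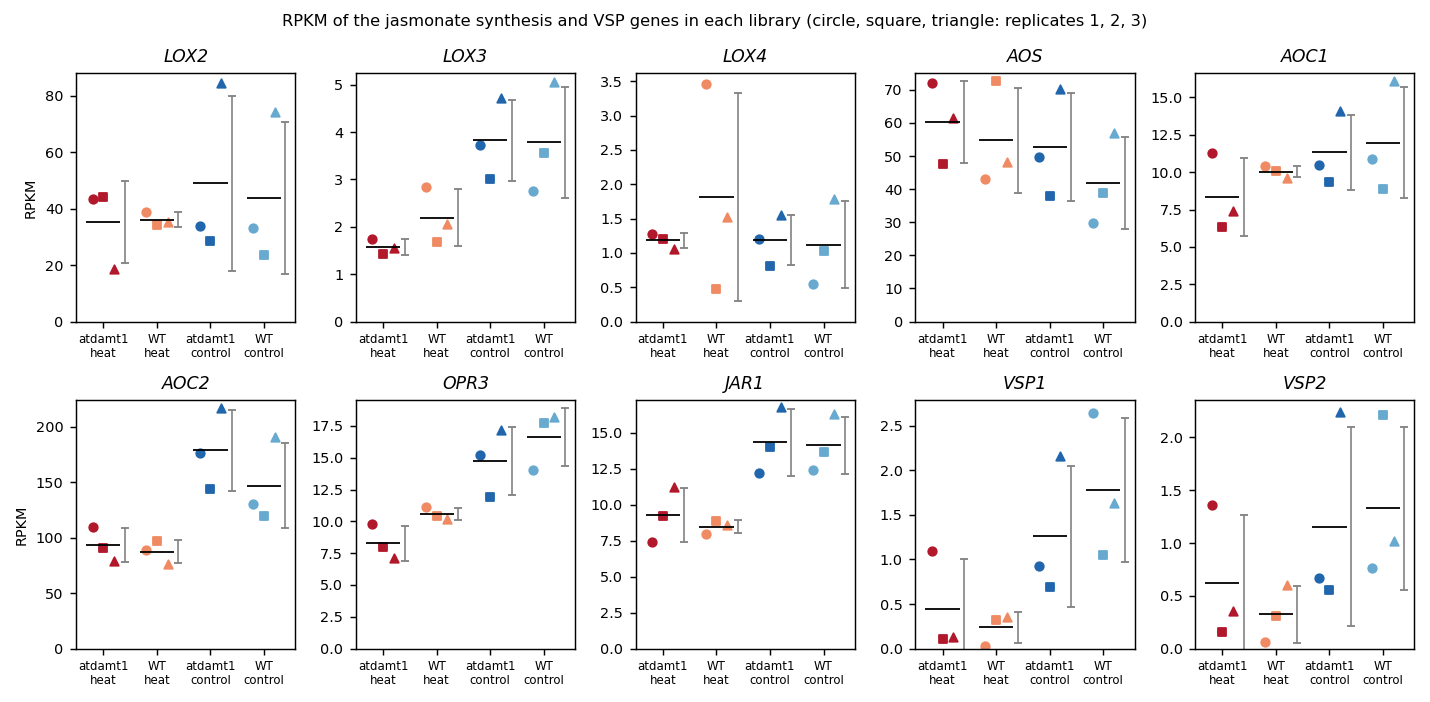
RPKM of the 10 genes in each library, with the mean (black line) and SD (grey bar, cut at 0) of 3 libraries per group. AOC2, OPR3 and JAR1 show heat libraries below the controls of the same genotype, while LOX2, AOS and AOC1 overlap and their control replicates 3 (triangles) stand highest in their groups.

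Every heat library lay below every control library for 4 of 10 genes in atdamt1 (LOX3, AOC2, OPR3 and JAR1), against 58.6% of all genes tested. In WT this held for 5 (AOC2, OPR3, JAR1, VSP1 and VSP2), against 56% of all genes. Relative to the median gene, the genes called lower changed on the log2 scale by -0.49 (AOC2), -0.46 (LOX3), -0.32 (OPR3) and -0.15 (JAR1) in atdamt1. In WT they changed by -0.72 (VSP1), -0.31 (AOC2), -0.26 (JAR1), -0.19 (OPR3) and -0.16 (LOX3), and 12.2% of all genes lay below VSP1. VSP1 entered the test only through the controls, so its place is not support for a fall.

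**Figure D2:**
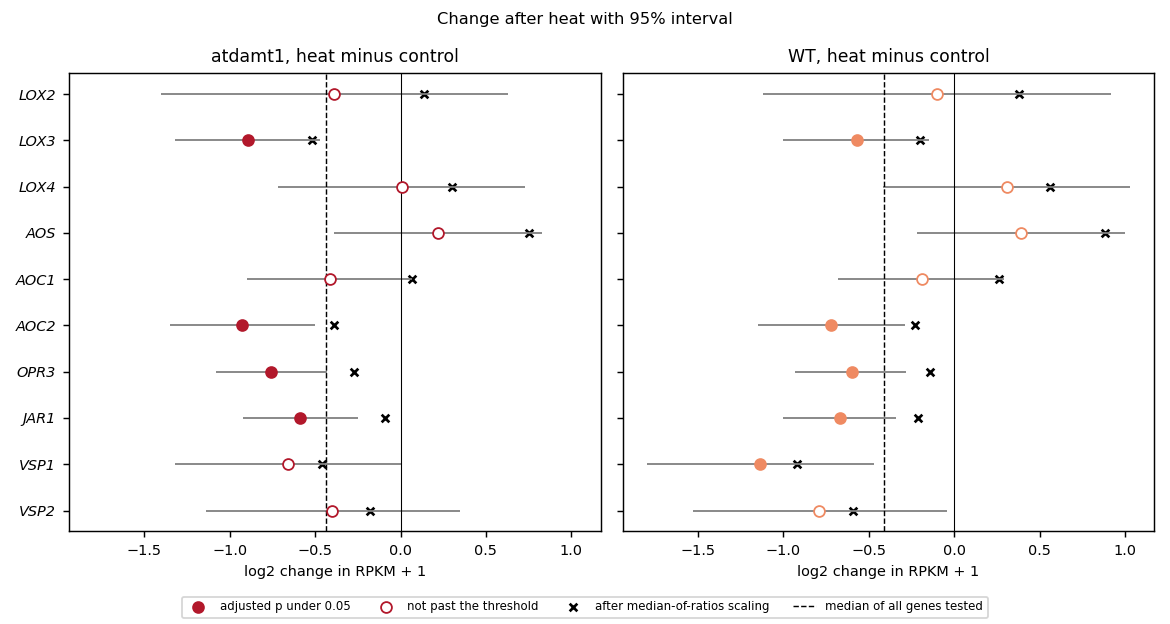
Log2 change of each gene after heat in atdamt1 (left) and WT (right), with 95% intervals from limma; filled points passed the threshold, crosses give the change after median-of-ratios scaling and the dashed line is the median of all 17628 genes tested. VSP1 in WT lies farthest left of the dashed line, and AOS lies right of it in both genotypes.

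How the libraries were scaled changed the counts. Under median-of-ratios scaling 1 gene stayed lower in atdamt1 (LOX3) and in WT 1 was lower (VSP1) and 1 higher (AOS). Of all 17628 genes tested, that scaling called 4842 higher and 4811 lower in atdamt1, and 4941 and 4836 in WT. Under quantile normalization only AOC2 of the 10 stayed lower in each. There, 4051 of all genes were higher and 5175 lower in atdamt1, and 4001 and 4670 in WT. The uncalled changes of LOX2 and AOC1 turned positive after median-of-ratios scaling, at 0.14 and 0.07 in atdamt1 and 0.38 and 0.26 in WT. The chloroplast-encoded share of summed RPKM was 3.17 to 6.01% in atdamt1 heat against 0.32 to 0.979% in atdamt1 control, and 0.39 to 4.05% in WT heat against 0.394 to 1.07% in WT control. With that share in the model, 1 of 10 genes, AOC2, remained lower in atdamt1 and 4 were lower in WT. The genes called lower among all 17628 tested numbered 4495 in atdamt1, against 9913 without it, and 8705 in WT, against 9267 without it. In atdamt1 the share did not overlap between heat and control, so share and heat can hardly be told apart there. A call lost in this model therefore does not show that the fall came from the share. In that model OPR3 in atdamt1 had -0.76 (adjusted p = 0.0554, limma), JAR1 -0.53 (adjusted p = 0.172, limma) and LOX3 -0.63 (adjusted p = 0.187, limma). The uncalled change of AOS in atdamt1 turned to -0.43 (adjusted p = 0.509, limma).

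Shares within each gene family were compared. AOC2 made up 78 to 78.9% of the summed RPKM of the 4 AOC genes in atdamt1 heat against 84.8 to 86.3% in atdamt1 control, and 73.1 to 75.7% in WT heat against 79.5 to 82.8% in WT control. The shares did not overlap in either genotype, with differences of -7.09 and -6.27 percentage points and a two-sided exact permutation p of 0.1, the smallest that 3 against 3 allows (0.24 adjusted over 12 comparisons). LOX2 made up 64.9 to 78.7% of the 13-lipoxygenase RPKM (LOX2, LOX3, LOX4 and LOX6) in atdamt1 heat against 68.1 to 80.7% in atdamt1 control, and 71.8 to 75.2% in WT heat against 56.6 to 79.1% in WT control, all overlapping. VSP1 made up 27.4 to 44.5% of the VSP sum in atdamt1 heat against 49.1 to 57.8% in atdamt1 control (exact permutation p = 0.1), and 36.2 to 50.7% in WT heat against 32.2 to 77.7% in WT control, on few reads.

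**Figure D3:**
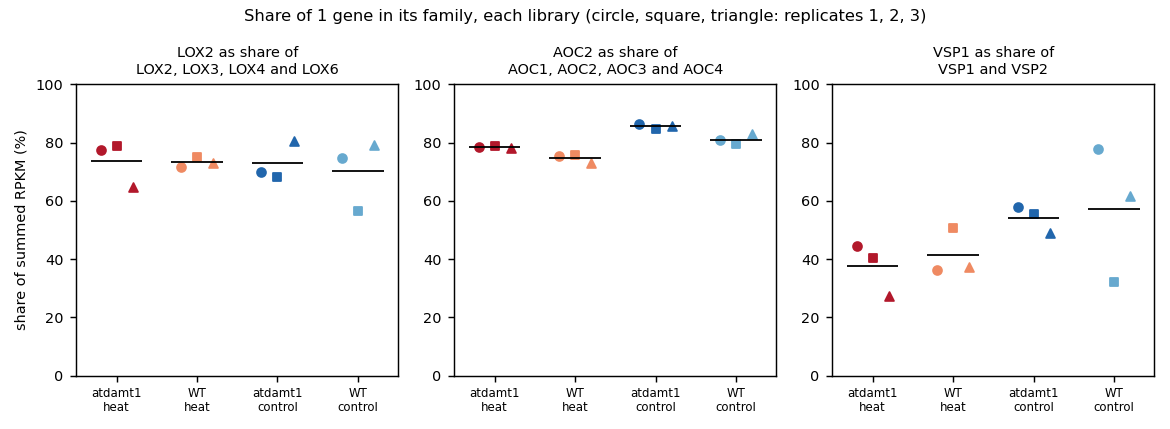
Share (%) of the summed family RPKM held by LOX2, AOC2 and VSP1 in each library, with the group mean as a line. The AOC2 share is 78 to 78.9% in atdamt1 heat and 84.8 to 86.3% in atdamt1 control, and the WT libraries lie lower in each treatment.

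The genotypes were compared within each treatment. No gene of the 10 passed the threshold between atdamt1 and WT in limma, either in control (0 of 10, where 0.0113% of all genes tested were called) or after heat (0 of 10, where 0% were called). At an unadjusted p under 0.05 the counts were 0 of 10 in control, against 4.63% of all genes, and 1 of 10 after heat, against 7.52%. That gene was OPR3, with 9.8, 7.99 and 7.1 RPKM in atdamt1 heat against 11.1, 10.4 and 10.2 in WT heat. For OPR3 every atdamt1 heat library lay below every WT heat library, as for 11.7% of all genes tested. The difference was -0.33 ± 0.15 (SE, unadjusted p = 0.0497, adjusted p = 0.663, limma), with a 95% interval of -0.65 to 0.

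Intervals of the genotype difference in control were narrowest for OPR3, JAR1 and LOX3 and widest for LOX2. OPR3 differed by -0.17 (95% interval -0.49 to 0.15), JAR1 by 0.02 (-0.32 to 0.35), LOX3 by 0.02 (-0.4 to 0.45) and LOX2 by 0.16 (-0.86 to 1.18). AOC2 differed by 0.29 (-0.14 to 0.72) and AOS by 0.33 (-0.28 to 0.94), in every case atdamt1 minus WT on the log2 scale. After heat AOC2 differed by 0.09 (-0.34 to 0.52), AOS by 0.16 (-0.46 to 0.77), JAR1 by 0.10 (-0.23 to 0.44) VSP1 by 0.17 (-0.5 to 0.83) and VSP2 by 0.24 (-0.5 to 0.99). The other 5 were negative: besides OPR3, LOX3 differed by -0.30 (-0.72 to 0.13), AOC1 by -0.28 (-0.76 to 0.21), LOX4 by -0.22 (-0.95 to 0.5) and LOX2 by -0.12 (-1.14 to 0.89). A p that misses the threshold does not show that the genotypes are alike, and these intervals bound the difference.

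The heat response itself was compared between genotypes. No gene of the 10 passed the test of the difference (0 of 10, where 0% of all genes tested were called), and 0 of 10 had an unadjusted p under 0.05, against 3.38% of all genes. The VSP genes had the most positive differences, 0.48 ± 0.43 for VSP1 (SE, 95% interval -0.46 to 1.42) and 0.39 ± 0.48 for VSP2 (-0.67 to 1.44). LOX3 had the most negative, -0.32 ± 0.27 (-0.92 to 0.28). VSP1 passing in WT and not in atdamt1 is therefore not a shown difference between genotypes (adjusted p = 0.979, limma).

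Within groups, many of the 10 genes were high in the same libraries. Control replicate 3 was the highest of its group for all 10 genes in atdamt1 and for 8 in WT, and for 8 genes in both, against 21.4% of all genes tested. Among heat libraries, replicate 1 was highest for 8 genes in atdamt1 and for 5 in WT, and for 4 in both, against 6.4% of all genes. The counts within a single group have no share over all genes beside them. The SD within groups on the log2 scale was 0.68 for LOX2, larger than that of 98.6% of genes, and 0.19 for OPR3 and 0.20 for JAR1, near the middle of the table. CORI3 (AT4G23600), a jasmonate-responsive cystine lyase, held 6.94, 5.53 and 15.0 RPKM in atdamt1 control and 5.56, 4.51 and 18.4 in WT control, also highest in replicate 3. What sets these libraries apart was not tested.

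**Figure D4:**
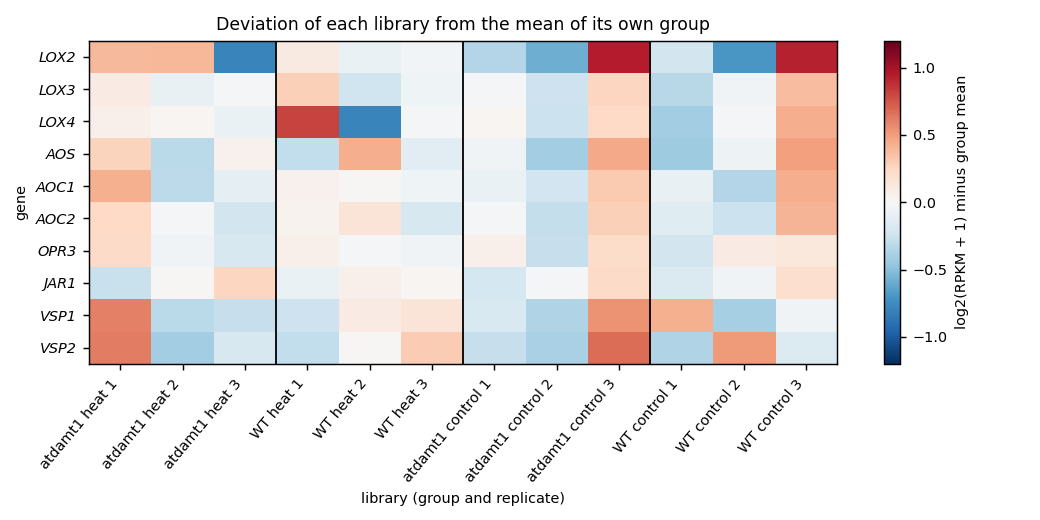
Deviation of each library from its group mean, in log2(RPKM + 1), for the 10 genes. Red cells (above the mean) fill control replicate 3 of atdamt1 and most of that of WT, with the largest deviations in LOX2.

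Likeness was taken as the root mean square difference over the 12 libraries in centred log2(RPKM + 1). The nearest genes named were picked outside the 10 and at a mean of 5 RPKM or more, while positions count all 17627 other genes tested. In that pick the nearest to LOX2 were AT5G44005 (0.317), CAD7 (AT4G37980, 0.348) and VQ1 (AT1G17147, 0.389). AOC1 stood at position 15 of 17627 from LOX2, and the rest of the 10 at 225 to 8516. Nearest to AOS were AT2G32560 (0.174), AT3G23880 (0.186) and LECRKS2 (AT2G32800, 0.212), with AOC1 the closest of the 10 at position 2693. OPR3 was nearest to TPS5 (AT4G17770, 0.113), AT4G34630 and AT1G04290 (both 0.118), with LOX3 at position 82 and the rest of the 10 at 4133 to 15098. JAR1 was nearest to AT3G49490 (0.09), nPAP (AT4G32850, 0.106) and the transcription factor MYC3 (AT5G46760, 0.107), with LOX3 the closest of the 10 at position 4872. For VSP2 the pick gave KCS8 (AT2G15090, 0.24), AT1G17200 (0.247) and AUX1 (AT2G38120, 0.257). OPR3 stood at position 784 from VSP2 and VSP1 at 1622. VSP2 held at most 2.24 RPKM, so genes at levels like its own were left out of the pick. These positions describe likeness over libraries that share treatment and scale.

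Other genes of the pathway were counted from lists of 79 genes. On the deposited scale, each count below stands against 10.3% of all genes higher and 56.2% lower in atdamt1. In WT these shares were 9.41% higher and 52.6% lower. Counts after median-of-ratios scaling stand against 4842 higher and 4811 lower of all 17628 genes in atdamt1, and 4941 and 4836 in WT. No count is read as particular to its list. Of 16 tested genes of other synthesis steps, lipid supply and beta-oxidation, 3 rose and 6 fell in atdamt1. In WT 4 rose and 3 fell. The falls in atdamt1 included OPR1 (AT1G76680, -0.62) and OPR2 (AT1G76690, -0.70), which are not beta-oxidation genes and overlap each other on the same strand. OPR1 held 82.2 to 149 RPKM in atdamt1 heat against 132 to 197 in atdamt1 control, so its groups overlapped. Both calls were lost after median-of-ratios scaling, at -0.09 for OPR1 and -0.19 for OPR2 (adjusted p = 0.745 and 0.468, limma). After median-of-ratios scaling 7 rose and 2 fell in atdamt1 and 6 rose and 1 fell in WT. The beta-oxidation thiolase KAT2 (AT2G33150) rose by 0.50 ± 0.09 in atdamt1 (SE, adjusted p = 0.000342, limma) and 0.49 ± 0.09 in WT (adjusted p = 0.000471, limma), at 130 to 142 RPKM in atdamt1 heat against 89.4 to 104 in atdamt1 control. The acyl-CoA oxidase ACX1 (AT4G16760) rose by 0.24 in atdamt1 and 0.43 in WT, while the peroxisomal importer PXA1 (AT4G39850) fell, with -0.80 and -0.86. The chloroplast desaturase FAD8 (AT5G05580), which overlaps a gene on the other strand, also fell, with -1.27 in atdamt1 and -0.84 in WT; the WT call was lost after median-of-ratios scaling (-0.35, adjusted p = 0.0562, limma).

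Of 3 tested genes of other oxylipin branches, 1 rose and 1 fell in atdamt1, and 0 rose and 1 fell in WT. HPL1 (AT4G15440), the hydroperoxide lyase that draws on the same substrate as AOS, fell to 0.0246 to 0.138 RPKM in atdamt1 heat against 0.996 to 2.63 in atdamt1 control, and to 0.0239 to 0.0931 in WT heat against 0.485 to 1.68 in WT control. Its ratios of means were 0.0481 in atdamt1 and 0.0657 in WT (adjusted p = 0.000712 and 0.00577, limma). HPL1 reached 1 RPKM in 4 control libraries and 0 heat libraries, so it was tested only through the group where it is high and had to differ. The 9-lipoxygenase LOX1 (AT1G55020), which overlaps a gene on the other strand, rose in atdamt1 (0.88 ± 0.26, adjusted p = 0.0108, limma). In WT LOX1 had 0.31 ± 0.26 (adjusted p = 0.314, limma). The WT change was called higher under median-of-ratios scaling (0.74, adjusted p = 0.0314, limma) and quantile normalization (0.80, adjusted p = 0.0196, limma). After median-of-ratios scaling 2 of these 3 genes rose and 1 fell in atdamt1, and 1 rose and 1 fell in WT. Of 5 tested genes of turnover and conjugation, 1 rose and 1 fell in atdamt1, and 1 rose and 2 fell in WT. ST2A (AT5G07010), a hydroxyjasmonate sulfotransferase, rose by 0.85 in atdamt1 and 0.81 in WT, and the amidohydrolase IAR3 (AT1G51760) fell, with -0.58 and -0.86. ST2A reached 1 RPKM in 5 heat libraries and 1 control library, and so passed the filter only through heat. After median-of-ratios scaling 1 of the 5 rose and 0 fell in each genotype, and IAR3 had -0.10 in atdamt1 (adjusted p = 0.655, limma) and -0.41 in WT (adjusted p = 0.0653, limma).

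Of 9 tested receptor and transcription factor genes, 7 fell and 0 rose in each genotype. MYC4 (AT4G17880) fell to 1.31 to 1.66 RPKM in atdamt1 heat against 5.26 to 6.27 in atdamt1 control, and to 0.662 to 1.62 in WT heat against 5.46 to 6.51 in WT control. The repressive factors JAM1 (AT2G46510) and JAM2 (AT1G01260) fell, with -1.3 and -1.08 in atdamt1 and -1.07 and -1.21 in WT. The receptor COI1 (AT2G39940) fell, with -0.57 in atdamt1 and -0.79 in WT, and its atdamt1 call was lost after median-of-ratios scaling (-0.09, adjusted p = 0.345, limma). MYC2 (AT1G32640) is listed at 0 in all 12 libraries and overlaps a gene on the other strand, so its level was not analysed here. Under median-of-ratios scaling the counts were 3 higher and 3 lower in atdamt1 and 2 higher and 4 lower in WT.

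Of 8 tested JAZ repressors, 2 rose and 4 fell in atdamt1, and 3 rose and 4 fell in WT; after median-of-ratios scaling 4 rose and 2 fell in atdamt1 and 4 rose and 3 fell in WT. JAZ9 (AT1G70700) rose by 1.21 in atdamt1 and 1.29 in WT, and JAZ6 (AT1G72450) fell, with -0.94 and -0.93. Of 4 tested response genes of the MYC branch, 1 rose and 2 fell in atdamt1, and 1 rose and 1 fell in WT. The factor NAC055 (AT3G15500) rose to 3.16 to 4.35 RPKM in atdamt1 heat against 0.259 to 0.566 in atdamt1 control, and to 3.1 to 3.13 in WT heat against 0.269 to 0.797 in WT control. NAC055 reached 1 RPKM in 6 heat libraries and 0 control libraries, and so entered the test only through the heat groups. CLH1 (AT1G19670), a chlorophyllase induced by coronatine, fell, with -2.60 in atdamt1 and -2.29 in WT, and CORI3 fell by 1.01 in atdamt1 (adjusted p = 0.0498, limma). That CORI3 call was lost under median-of-ratios scaling (-0.56, adjusted p = 0.281, limma) and quantile normalization (-0.55, adjusted p = 0.323, limma). After median-of-ratios scaling 1 of the 4 rose and 1 fell in each genotype. Of 4 tested genes of the ERF branch, 1 rose and 2 fell in atdamt1, and 0 rose and 2 fell in WT; the 1 that rose, PDF1.2B (AT2G26020), reached 1 RPKM in 3 heat libraries and 0 control libraries. HEL (AT3G04720), a hevein-like defence gene, fell, with -2.68 in atdamt1 and -3.78 in WT. The factor ORA59 (AT1G06160) fell, with -1.26 in atdamt1 and -1.37 in WT. After median-of-ratios scaling 1 of these 4 rose and 2 fell in each genotype.

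VSP1 and VSP2 belong to a wider family of acid phosphatase-like proteins, of which 8 others were tested. In atdamt1, 1 of 8 rose and 4 fell, and in WT 0 rose and 3 fell; after median-of-ratios scaling 2 rose and 1 fell in atdamt1 and 1 rose and 2 fell in WT. AT2G39920 fell, with -0.94 in atdamt1 and -0.99 in WT, and AT4G29260 fell, with -0.54 and -0.89; both overlap a gene on the other strand. The AT4G29260 call in atdamt1 was lost after median-of-ratios scaling (-0.03, adjusted p = 0.865, limma). AT2G38600, which also overlaps other genes, held 0.52 to 1.6 RPKM in atdamt1 heat against 0 to 0.129 in atdamt1 control and was called higher. It reached 1 RPKM in 3 heat libraries and 0 control libraries, and so was tested only through heat. AT5G44020, which overlaps a gene on the same strand, was abundant, at 395 to 608 RPKM in atdamt1 heat against 491 to 643 in atdamt1 control, and did not pass (adjusted p = 0.507, limma). No gene of these lists was called between genotypes or in the difference of heat responses in limma. At an unadjusted p under 0.05 there were 1 in control (JAM1), 4 after heat (ACX1, AIM1, MFP2 and PDF1.3) and 2 in the difference (FAD8 and HEL). Over all genes tested the shares at that p were 4.63%, 7.52% and 3.38%, and the genes named are not read as a genotype effect.

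**Figure D5:**
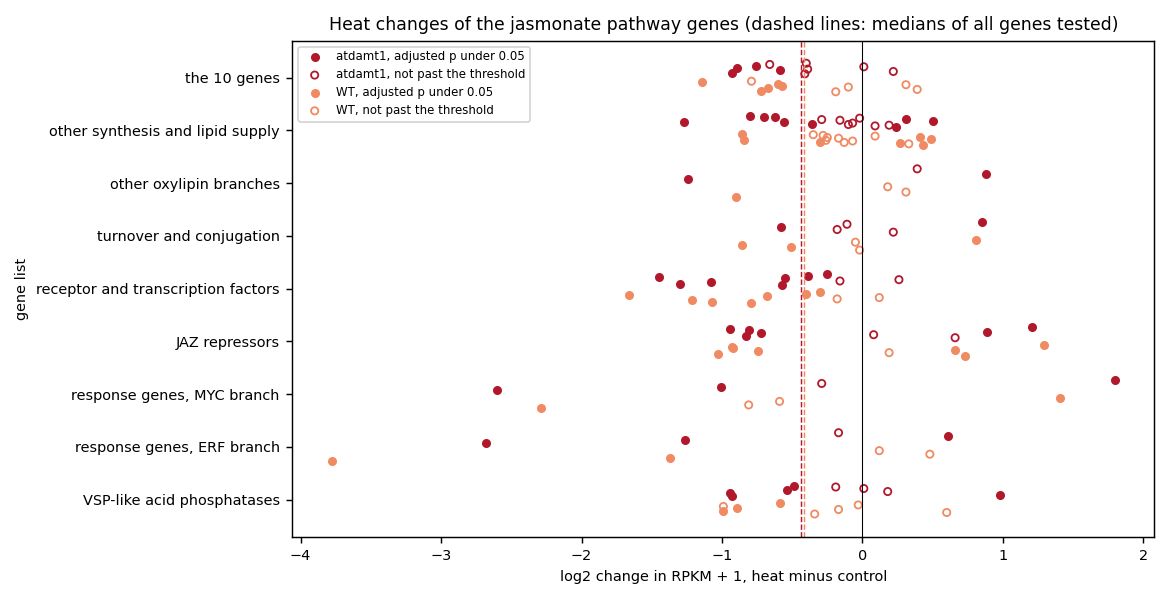
Log2 change after heat of each tested gene by list, atdamt1 above WT in each row; filled points passed the threshold and dashed lines mark the medians of all genes tested. HEL and CLH1 lie farthest left and NAC055 farthest right, while the 10 genes lie between -1.14 and 0.39.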

How the data were processed

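Poly(A) RNA libraries were made with a strand-keeping kit, per the labels' protocols. The deposited table holds RPKM values made by the authors for 32833 genes; STAR, DESeq2 and TAIR10 are named without a role or version in the submitters' processing notes, and the sources used here do not name the counting tool. RPKM is relative to the library total, so a few abundant genes can move all others. Multiplying by TAIR10.1 exon length (32548 genes) gave whole reads within 0.1 for 99.3 to 99.4% of low values and depths of 21720000 to 23519000; read counts beside values come from this step and cover counting error only. Replicates differed by more than sampling noise (chi-square per degree of freedom 12.4 to 43.6).

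Limma 3.58.1 (R 4.3.3) was fitted on log2(RPKM + 1) to the 17628 genes at 1 RPKM or more in 3 or more libraries, with 1 mean per group over all 12 libraries, 8 residual degrees of freedom, a variance trend and two-sided Benjamini-Hochberg adjustment over all genes. Exact tests used scipy 1.17.1, and tables pandas 2.3.3 and numpy 2.4.6 under Python 3.11.15. The fit was tested on simulated data. Alternatives were other pseudocounts (0.1 and 5), filters, scalings, a replicate block, variance settings, a covariate and leaving out libraries. The genes and lists were chosen with earlier results of these data known. Named genes were the 10, and per list and contrast up to 4 called genes with the largest change; AT5G44020, the genes named at an unadjusted p and the values of CORI3 by library were chosen after their values were seen. For likeness, 3 genes with a mean of 5 RPKM or more were named per gene.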

Additional observations from a re-analysis of the deposited data

How the results depend on the processing

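The count of the 10 genes called after heat as deposited was 4 in atdamt1 and 5 in WT. It became 1 and 2 under median-of-ratios scaling and 1 and 1 under quantile normalization, whose construction removes the shift of the median gene. With the chloroplast-encoded share in the model it became 1 in atdamt1, where share and heat can hardly be told apart. The cause was not tested there. Over all genes, median-of-ratios scaling called 4842 higher and 4811 lower in atdamt1 and 4941 and 4836 in WT. Quantile normalization called 4051 higher and 5175 lower in atdamt1 and 4001 and 4670 in WT. No called value changed sign under any setting run. AOC2 kept its call in 23 of 24 settings in each genotype. VSP1 and VSP2 were not tested with a mean RPKM filter of 1. Leaving out control replicate 3 of both genotypes, chosen after seeing the data, lost LOX3 in WT (-0.39, adjusted p = 0.0741, limma) and added AOS and VSP2 there (adjusted p = 0.0436 and 0.0443, limma). The main fit did not treat replicate numbers as pairs, and correlations of same-numbered deviations were -0.43 to 0.53. Each atdamt1 heat library correlated best with the atdamt1 control library of its own number (0.06, 0.28 and 0.24), a hint from the data and not the design, and the 0.53 is between control replicates 3 of both genotypes. With the replicate block, AOC2 fell, with -0.93 (adjusted p = 0.00266, limma) in atdamt1 and -0.72 (adjusted p = 0.0108, limma) in WT, and no call of the 10 genes changed. Depth limits VSP1 and VSP2, with 1 to 77 reads per library.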

Other observations

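AOC2 held a larger share of the summed AOC RPKM in every atdamt1 library than in every WT library of the same treatment. The shares were 78.5 ± 0.474% in atdamt1 heat and 74.8 ± 1.44% in WT heat, and 85.6 ± 0.75% in atdamt1 control and 81.0 ± 1.67% in WT control (SD, n = 3 each; exact permutation p = 0.1 in each treatment, the smallest that 3 against 3 allows, and 0.24 adjusted over 12 comparisons). AOC4 (AT1G13280), the next most abundant of the 4, averaged 16.7 ± 1.85 RPKM in atdamt1 heat and 18.9 ± 1.38 in WT heat, and 18 ± 3.05 in atdamt1 control and 20.8 ± 2.12 in WT control. None of the AOC genes was called between genotypes in limma, and the share was looked at after the levels had been seen.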
